A study of Mus musculus with 16 samples.

Results

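The genes described here are the 67 replication-dependent histone genes of the mouse, taken as all protein-coding genes whose GENCODE M21 symbol starts with Hist1h, Hist2h, Hist3h or Hist4, out of 53465 genes in the expression table. They comprise 6 H1, 18 H2A, 18 H2B, 12 H3 and 13 H4 genes, with 54 in the Hist1 cluster on chromosome 13, 10 in the Hist2 cluster on chromosome 3, 2 in the Hist3 cluster on chromosome 11 and 1, Hist4h4, on chromosome 6. The 3 histone-named pseudogenes were left out. RNA was measured in bulk in 16 subcutaneous tumors of MC38, a mouse colon adenocarcinoma cell line, each from another female C57BL/6 mouse of 6 to 8 weeks at the start. All mice received 1000000 cells in the flank, entered the study on day 16 with tumors of 150 to 250 mm3, were given 200 µg of antibody on days 16 and 20, and had their tumors collected on day 21. The groups were 8 tumors given IgG as control (tumors 1 to 8), 6 given aPD-1, an antibody that blocks the PD-1 checkpoint receptor, and classed as non-responders (tumors 9 to 14), and 2 given aPD-1 and classed as responders (tumors 15 and 16) for their many CD8 T cells on tissue staining, so the responder group rests on 2 animals and was defined by its T cell content. Each library came from 2 sections of 100 µm, was enriched for poly(A) RNA and kept strand.

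Histone proteins package DNA: 2 copies each of H2A, H2B, H3 and H4 form the nucleosome core, and H1 binds the linker DNA. The replication-dependent genes are transcribed mainly in S phase, when new DNA has to be packaged, and for that reason their mRNAs are often read as a sign of dividing cells. Their mRNAs are also unusual in that most end shortly after a conserved stem-loop and carry no poly(A) tail, so selection for poly(A) RNA removes most of them, apart from the forms of some genes that run past the stem-loop and are polyadenylated. Their level in a poly(A)-selected library can thus move with the share of dividing cells and with the completeness of the selection, and genes and RNAs that bear on each are given beside them.

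The stem-loop was searched for in the annotated transcripts as GG, any 3 bases, TT, any base, T, any base, A, any 3 bases and CC, within 150 exonic bases after the stop codon, on the sense strand only. It was present in 46 of the 67 genes, or 68.7%, against 80 of 20950 other protein-coding genes, or 0.382%. The other genes were counted only where at least 16 bases followed the stop codon. The 67 include genes annotated to end at the stop codon, which could not be scanned, so their share may be too low. Of the 46, 26 carried the core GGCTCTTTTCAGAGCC, which no H4 gene had, and 7 carried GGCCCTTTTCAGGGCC, all of them H4 genes. The sequences below are shown because they belong to the genes on which the results turn. They run 5′ to 3′ on the sense strand from the GENCODE M21 transcripts, build GRCm38, with the stem-loop core in capitals. The first 5 had the largest rise in tumor 3 among genes averaging 20 or more counts. That average includes tumor 3, where these 5 had 200 to 398 counts, and they reach it only through that library. The next 5 had levels in tumor 3 near or below those of the other IgG controls or only modestly above them. The last was called higher in responders.

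Hist1h4h: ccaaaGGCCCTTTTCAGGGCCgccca
Hist1h2ab: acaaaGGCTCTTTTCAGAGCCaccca
Hist1h3b: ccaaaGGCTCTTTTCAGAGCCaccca
Hist1h4f: tcaaaGGCCCTTTTCAGGGCCaccca
Hist1h3e: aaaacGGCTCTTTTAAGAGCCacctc
Hist1h2ap: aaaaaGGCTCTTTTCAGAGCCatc
Hist3h2a: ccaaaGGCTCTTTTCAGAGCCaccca
Hist1h4i: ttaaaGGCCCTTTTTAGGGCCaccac
Hist1h1c: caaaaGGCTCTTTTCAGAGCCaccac
Hist2h3c1: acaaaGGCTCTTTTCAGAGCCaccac
Hist3h2ba: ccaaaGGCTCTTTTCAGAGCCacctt

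These stretches lie in the 3′ untranslated regions, at chr13:23531453-23531478 for Hist1h4h (plus strand), chr13:23751567-23751592 for Hist1h2ab (plus), chr13:23752815-23752840 for Hist1h3b (plus), chr13:23551286-23551311 for Hist1h4f (minus) and chr13:23561898-23561923 for Hist1h3e (minus). Those of the second set lie at chr13:21833026-21833049 for Hist1h2ap (minus), chr11:58955167-58955192 for Hist3h2a (plus), chr13:22040961-22040986 for Hist1h4i (minus), chr13:23739507-23739532 for Hist1h1c (plus) and chr3:96247322-96247347 for Hist2h3c1 (plus), and that of Hist3h2ba at chr11:58949344-58949369 (plus). The core of Hist3h2a, whose level in tumor 3 was at that of the other tumors, was letter for letter that of Hist1h3b, which stood far above them there. For 23 genes the annotated transcript ended more than 300 bases beyond the stop codon (long annotation), and 19 of these also held the stem-loop. The other 44 had a short annotation, and 27 of them held the stem-loop.

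The promoters of 62 of the genes, 300 bases each in the RefSeq table for GRCm38.p6, shared other features that the choice by name did not use. CCAAT, on either strand, occurred in all 6 H1, 18 H2A, 16 H2B and 10 H3 promoters in the table, in 3 of 12 H4 promoters, and in 37.9% of all 27025 promoters. The octamer ATTTGCAT, on either strand, occurred in 7 of 18 H2A and 6 of 16 H2B promoters, in no promoter of the H1, H3 and H4 genes, and in 1.75% of all promoters. Some neighboring H2A and H2B genes on opposite strands, such as Hist1h2ae and Hist1h2bg, have overlapping promoters. The same motif is then counted in both families, so these counts are not of separate sites.

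Most of these genes were read at low depth. The libraries held 26603449 to 39948866 counts, and the 67 genes together took between 17370 and 46661 counts of a library, or 0.0548% to 0.139%. Levels are given as CPM, read counts scaled to a common library size, with library sizes adjusted by trimmed means (TMM). Mean levels over the 16 tumors exceeded 10 CPM for 6 genes, lay between 1 and 10 CPM for 33 and were at or below 1 CPM for 28, of which 2 had no count in any tumor. After the filter on low counts 62 genes were tested, 5 H1, 16 H2A, 16 H2B, 12 H3 and 13 H4 genes. Reads of near-identical copies are a further limit, and shared stretches were searched for among histone-named genes only. At least 50% of the 150-base stretches of 20 genes occur in another such gene, and 8 genes have a partner with an identical coding sequence. The split of counts between such copies is uncertain.

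A single gene dominated the sum. Hist1h2ap, an H2A gene at chr13:21833026-21833507, took 49.5% to 86.2% of the counts of all 67 genes in a tumor. Per kilobase of exon its mean over the 15 tumors other than tumor 3 was 1581 CPM per kb, against 37.6 for Hist1h4i, 28.3 for Hist1h2ao and 25.1 for Hist1h2bc, the next 3, and a median of 0.961 over all genes of the set. Of its 150-base stretches, 90.99% also occur in another histone-named gene. Its coding sequence is identical to that of Hist1h2ao, so its level is best read as that of the pair. The sum of Hist1h2ao and Hist1h2ap ranged from 364 CPM in tumor 15 to 1198 CPM in tumor 14.

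Outside Hist1h2ap, the histone genes were far higher in 1 library, that of tumor 3, an IgG control. The summed level of the other 66 genes was 562 CPM in tumor 3, between 143 and 273 CPM in the other 7 IgG controls with a median of 153, between 173 and 208 CPM in the non-responders and 158 and 178 CPM in the responders. Tumor 3 therefore stood 3.68 times above the median of the other IgG controls and outside the range of all 15 other tumors. With Hist1h2ap included, the sum in tumor 3 was 1114 CPM, 1.38 times that median and within the range of the others, which reached 1368 CPM. Tumor 3 was the highest of the 16 tumors for 52 of the 62 tested genes (6.66% of all 18251 tested genes), and exceeded 2 times the median of the other IgG controls for 54 of the 62 (4.45% of all genes with a median above 0). The filter let 3 of the 62 genes through only because of tumor 3, and among the other 59 these counts were 49 and 51.

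**Figure D1:**
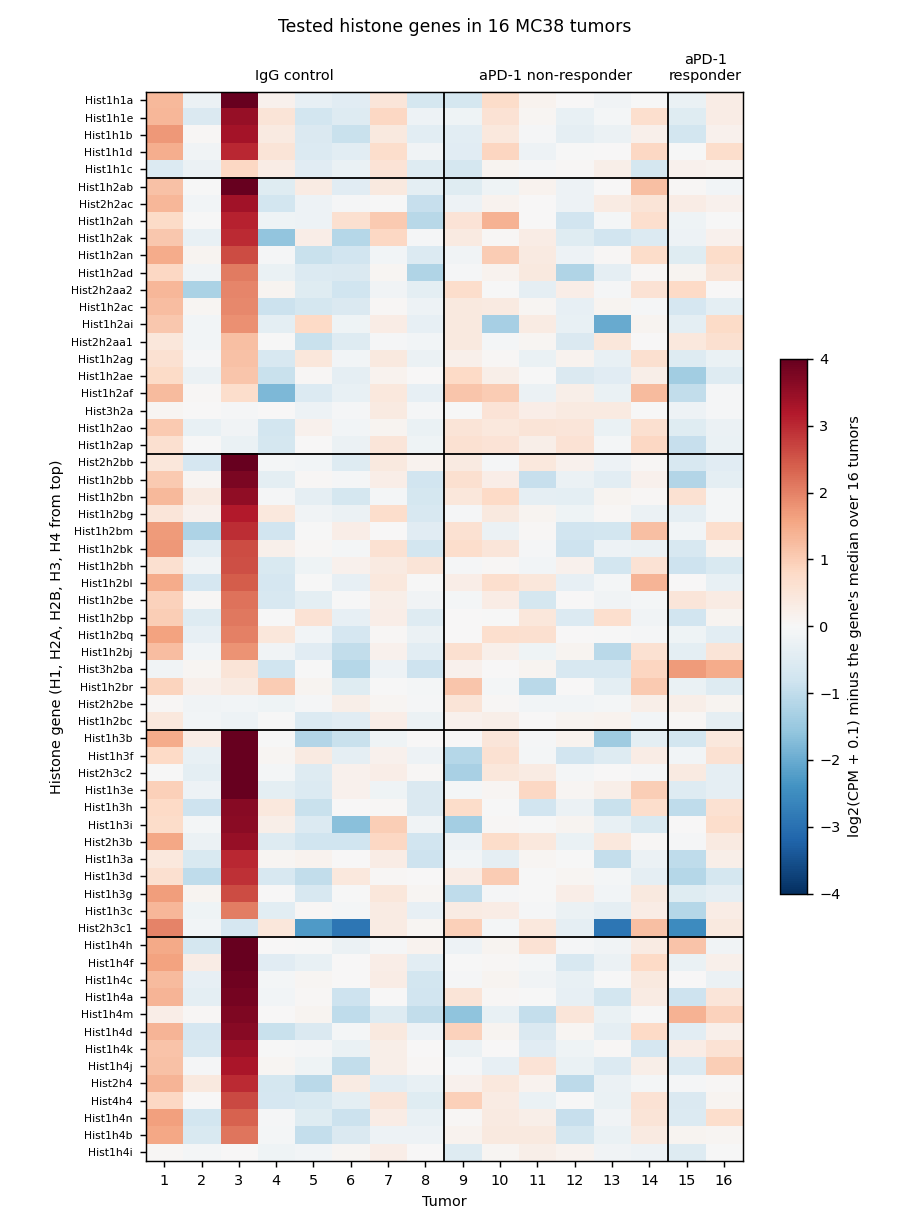
Heat map of the 62 tested histone genes (rows, by family and then by level in tumor 3) in the 16 tumors (columns, by group), as log2(CPM + 0.1) minus the gene's median over all tumors, with the color scale cut at 4 in either direction. The column of tumor 3 is red for 52 genes that are highest there, tumor 1 is paler red for most of them, and Hist1h2ap, Hist3h2a, Hist2h2be, Hist1h2bc and Hist1h4i show no rise in tumor 3.

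All 5 families took part, to different degrees. Without Hist1h2ap, the H3 genes, whose protein carries many of the chromatin marks, summed to 120 CPM in tumor 3 and to between 8.46 and 26.3 CPM in the other IgG controls, 13.004 times their median. The H1 genes summed to 94.8 CPM against 16.9 to 35.1 CPM, 4.80 times the median, and the H4 genes to 145 CPM against 34.4 to 63.0 CPM, 3.86 times. The H2B genes, at 98.4 CPM against 36.3 to 70.7 CPM, and the H2A genes, at 104 CPM against 43.5 to 86.0 CPM, were 2.29 and 2.26 times the median. These family sums are weighted to their most abundant genes: gene by gene, the median ratio was 15.1 for H3, 14.3 for H4, 10.6 for H1, 6.25 for H2B and 4.89 for H2A, over 12, 13, 5, 16 and 16 tested genes. By location, the Hist2 genes stood at 5.00 times, the Hist1 genes without Hist1h2ap at 3.89 times and Hist4h4 at 10.01 times the median, whereas the sum of the 2 Hist3 genes was 20.7 CPM in tumor 3, inside the range of 18.4 to 27.3 CPM in the other IgG controls.

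The genes with the largest ratios were nearly silent elsewhere. Hist1h4h, an H4 gene, was at 14.9 CPM in tumor 3, while the other IgG controls ran from 0.246 CPM through a median of 0.459 to 1.52 CPM in tumor 1, the non-responders from 0.397 to 0.749 CPM, and the responders were at 1.15 and 0.422 CPM, a ratio of 32.5 to the IgG median. Hist1h2ab, an H2A gene, was at 7.49 CPM against 0.150 to 0.684 CPM in the other IgG controls, 30.4 times their median. Hist1h3b, an H3 gene, reached 14.7 CPM against 0.172 to 1.63 CPM, 28.9 times. In each of the 3, tumor 3 lay above every other tumor, and tumor 1 was the next of the IgG controls. Hist1h4f (10.48 CPM, 25.3 times) and Hist1h3e (8.53 CPM, 24.0 times) showed the same order of tumor 3 over all others.

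The genes that did not rise in tumor 3 were mainly those already abundant in the other tumors. Hist1h2ap was at 552 CPM there, against 408 to 1053 CPM with a median of 656 CPM in the other IgG controls. Hist1h2bc, an H2B gene with a spliced transcript, was at 25.2 CPM against 19.8 to 38.9 CPM. Hist1h4i was at 28.5 CPM against 25.0 to 34.1 CPM, and Hist3h2a at 20.4 CPM against 18.2 to 27.1 CPM. In these 4 the library of tumor 3 lay inside the range of its group. The same was true of Hist2h2be, an H2B gene whose annotated transcript runs 2192 bases beyond the stop codon and in which the stem-loop was not found within the first 150 of them, at 7.37 CPM against 6.99 to 9.31 CPM.

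Hist1h1c, the most abundant H1 gene, combined both patterns. It was at 32.8 CPM in tumor 3 and at 12.6 to 26.6 CPM in the other IgG controls, a ratio of 2.13 and the highest level of the 16 tumors. On the CPM scale its gain over the median was 17.4 CPM, against 20.4 CPM for Hist1h1e, which rose 13.7 times from a median of 1.61 CPM, and 22.3 CPM for Hist2h3c2, which rose 21.2 times from 1.10 CPM. Over the 54 genes with a ratio of 2 or more, the gain ranged from 0.159 to 22.3 CPM with a median of 5.88 CPM. The 7 tested genes whose median in the other IgG controls was at least 5 CPM had ratios between 0.841 and 2.13, and the 55 below that level had ratios between 0.541 and 33.1 with a median of 10.01. The ratio is formed with that same median, so the inverse order is partly built into the comparison.

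**Figure D2:**
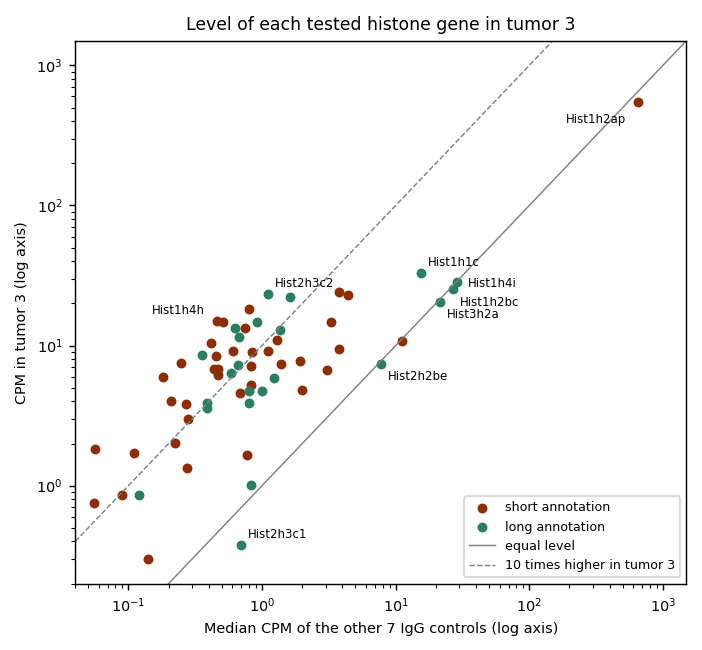
Level of each of the 62 tested histone genes in tumor 3 (vertical axis, CPM, log scale) against the median of the other 7 IgG controls (horizontal axis, CPM, log scale), colored by whether the annotated transcript ends within 300 bases of the stop codon (short) or beyond (long). Hist1h2ap, Hist1h4i, Hist1h2bc, Hist3h2a and Hist2h2be lie on or near the line of equal level, and the genes below 5 CPM scatter on both sides of the dashed line of 10 times.

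The annotated 3′ end separated the rising genes from the others only in part. Among the 39 tested genes with a short annotation, 37 exceeded 2 times the median of the other IgG controls, with a median ratio of 9.57, and among the 23 with a long annotation 17 did, with a median ratio of 7.18. The 6 long genes that did not were Hist2h3c1, Hist1h2bc, Hist3h2a, Hist2h2be, Hist1h4i and Hist1h2br, with ratios from 0.541 to 1.22. The 17 that did included Hist1h1d at 9.39 times, Hist2h4 at 10.98 times, Hist4h4 at 10.01 times and Hist1h3f at 21.1 times. The 2 short genes that did not were Hist1h2ap and its partner Hist1h2ao. Genes in which the stem-loop was found exceeded 2 times in 39 of 44 cases and those in which it was not in 15 of 18, and for most of the latter the annotation ends within 48 bases of the stop codon.

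The count was the same among genes with few and with many shared reads. Among the 20 tested genes with at most 10% of their 150-base stretches in another histone-named gene, 17 exceeded 2 times, with a median ratio of 9.70. Among the 20 with at least 50% shared, 17 did, with a median ratio of 6.52. Where copies are nearly alike, the sum is the safer value. Hist2h3c1 alone was at 0.374 CPM in tumor 3 and at 0 to 2.85 CPM in the other IgG controls, but the sum of Hist2h3b, Hist2h3c1 and Hist2h3c2, H3 genes of the Hist2 cluster, was 37.2 CPM in tumor 3 against 1.41 to 7.37 CPM, 15.1 times the median. The sum of Hist1h2bq and Hist1h2br, with identical coding sequences, was 5.76 CPM against 1.17 to 5.05 CPM, 3.14 times.

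As a set, the RNAs that carry no poly(A) tail for other reasons stood higher still in the same library, though not every entry did. Nuclear-encoded ribosomal RNA took 20.4% of the counts of tumor 3 and 0.151% to 0.489% of those of the other 15 tumors. Rn7sk, the RNA of the 7SK complex that restrains transcription elongation, was at 830 CPM in tumor 3 and at 3.17 to 17.5 CPM elsewhere, Rpph1, the RNA of ribonuclease P, at 486 CPM against 1.13 to 6.00 CPM, and Terc, the RNA template of telomerase, at 2.58 CPM against 0.150 to 0.766 CPM. All 7 tested entries of the list of such RNAs were highest in tumor 3, with ratios of 4.53 to 242 to the median of the other IgG controls, and the summed snRNA, snoRNA and scaRNA classes stood at 139, 55.2 and 10.3 times. Mitochondrial ribosomal RNA, which comes from the mitochondrial genome and is not in that list, was at 17381 CPM against 709 to 2796 CPM. On the same summed measure the histone genes stood at 1.38 times, or 3.68 times without Hist1h2ap. Both values were below those of the nuclear-encoded ribosomal, snRNA, snoRNA and scaRNA classes. Gene by gene, the median ratio was 9.08 for the 62 tested histone genes and 141 for the 7 tested entries of the list.

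Genes of dividing cells were not raised in that library. The 28 S phase genes, which encode replication and nucleotide synthesis factors, had ratios of 0.806 to 1.20 to the median of the other IgG controls, with a median of 0.913 and 18 of 28 below 1. The 20 G2/M genes had ratios of 0.811 to 1.11, with a median of 0.896 and 18 of 20 below 1. As mean log2 CPM, the S phase list stood at 6.42 in tumor 3 and at 5.98 to 6.596 in the other tumors, which placed tumor 3 at rank 8 of 16, and the G2/M list was at rank 8 as well. The 11 tested replication-independent histone genes, most of which have polyadenylated mRNAs and serve outside S phase as well, had ratios of 0.800 to 1.70. The median was 0.974. H2afz, which encodes the variant H2A.Z, was at 628 CPM against a median of 714 CPM. The 15 genes for histone mRNA processing, such as those of the stem-loop binding protein and the U7 machinery, had ratios of 0.836 to 1.40 with a median of 0.938, and the 12 histone chaperone genes 0.762 to 1.15 with a median of 0.997. No gene of these 5 lists exceeded 2 times. The part of poly(A) selection in the histone levels of tumor 3 was not tested beyond these values.

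**Figure D3:**
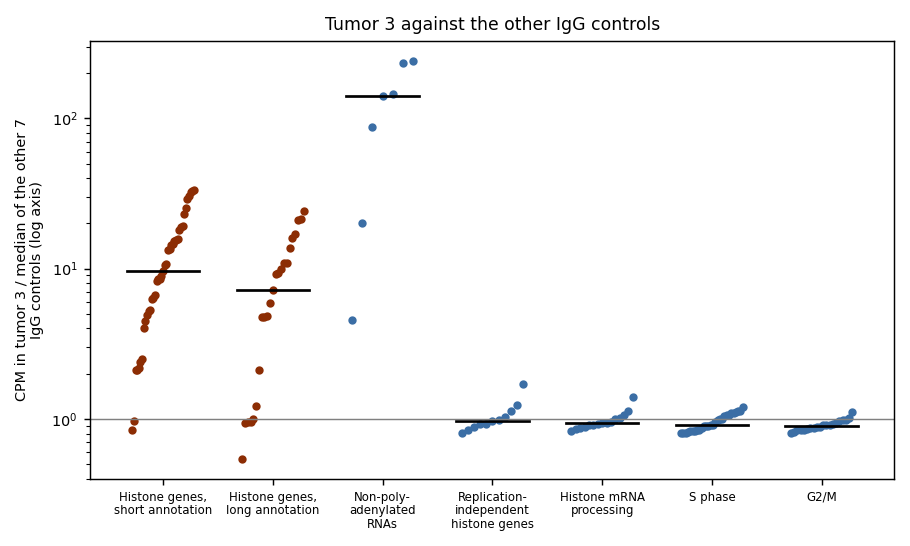
Ratio of the CPM in tumor 3 to the median of the other 7 IgG controls (vertical axis, log scale) for each tested gene of 7 sets; points are genes, and the black bars are medians over genes. Histone genes with short and long annotations center on 9.57 and 7.18 and the non-polyadenylated RNAs on 141, whereas the replication-independent histone, histone mRNA processing, S phase and G2/M genes all lie between 0.800 and 1.70.

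Most of the histone genes were also higher in tumor 1, another IgG control. Relative to the median of the 6 IgG controls other than tumors 1 and 3, 60 of the 62 tested genes were higher in tumor 1 and 43 more than 2 times higher, with a median ratio of 2.83, while 14.4% of all genes with a median above 0 exceeded 2 times. Among the 15 tumors other than tumor 3, tumor 1 was the highest for 42 of the 62 genes, against 21.3% of all tested genes. The pattern was not that of tumor 3 gene by gene. Hist2h3c2, with the largest gain in tumor 3, was at 1.10 CPM in tumor 1, inside the range of 0.746 to 1.35 CPM of the other IgG controls without tumor 3, and Hist1h1c, at 12.6 CPM, was the lowest of the IgG controls there. Of the genes that were not raised in tumor 3, Hist1h2ap at 1053 CPM, Hist1h2bc at 38.9 CPM, Hist1h2ao at 25.1 CPM and Hist2h3c1 at 2.85 CPM were each highest of the IgG controls in tumor 1. The S phase genes moved the other way in this library, with a median ratio of 0.661 and 6 of 28 above 1, and so did the G2/M genes, with a median of 0.602.

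Tumor 1 differed from the other libraries in its RNA content. Protein-coding genes of the mitochondrial genome took 7.32% of its counts, 5.80% in tumor 9 and 5.54% in tumor 14, against 1.84% to 3.15% in the other 13 tumors, and mitochondrial ribosomal RNA was highest in the same 3 libraries after tumor 3. Nuclear-encoded ribosomal RNA took 0.489% of its counts, the most after tumor 3. The 7 tested entries of the list of non-polyadenylated RNAs had a median ratio of 2.90 in tumor 1. The reference was the median of the 6 IgG controls other than tumors 1 and 3. Of the 7, 4 exceeded 2 times and the rest did not exceed 1. In tumors 9 and 14 the median ratios of the histone genes to the other 4 non-responders were 1.07 and 1.35, and 11 of 62 genes exceeded 2 times in each, against 8.90% and 6.62% of all genes with a median above 0. Why these libraries differ was not tested.

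Across tumors, the relation of the histone level to the S phase level depended on the genes and libraries taken. The mean log2 CPM of the tested histone genes without Hist1h2ap had a Pearson r of -0.17 and a Spearman rho of -0.46 with that of the S phase genes over the 16 tumors. Without tumor 3 these were -0.51 and -0.52 over 15 tumors, and without tumors 1, 3, 9 and 14 they were -0.10 and -0.36 over 12. For Hist1h2ap alone the Pearson r and Spearman rho with the S phase genes were -0.077 and -0.17 over 16 tumors but 0.49 and 0.30 over those 12, and with the G2/M genes 0.075 and -0.059 over 16 and 0.67 and 0.48 over 12. Between the histone genes without Hist1h2ap and mitochondrial ribosomal RNA, on the log2 scale, r was 0.94 over 16 tumors, 0.76 over 15 and 0.27 over 12. With nuclear-encoded ribosomal RNA r was 0.88, 0.31 and -0.24, and rho was 0.21, 0.043 and -0.17. With the list of non-polyadenylated RNAs r was 0.89, 0.44 and -0.11, and rho was 0.34, 0.19 and -0.23. These correlations are descriptions: the 2 measures of a pair come from the same libraries and share their scaling, and the values change with the tumors left out. In bulk tissue, fewer cells of a type and less RNA per cell cannot be told apart.

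**Figure D4:**
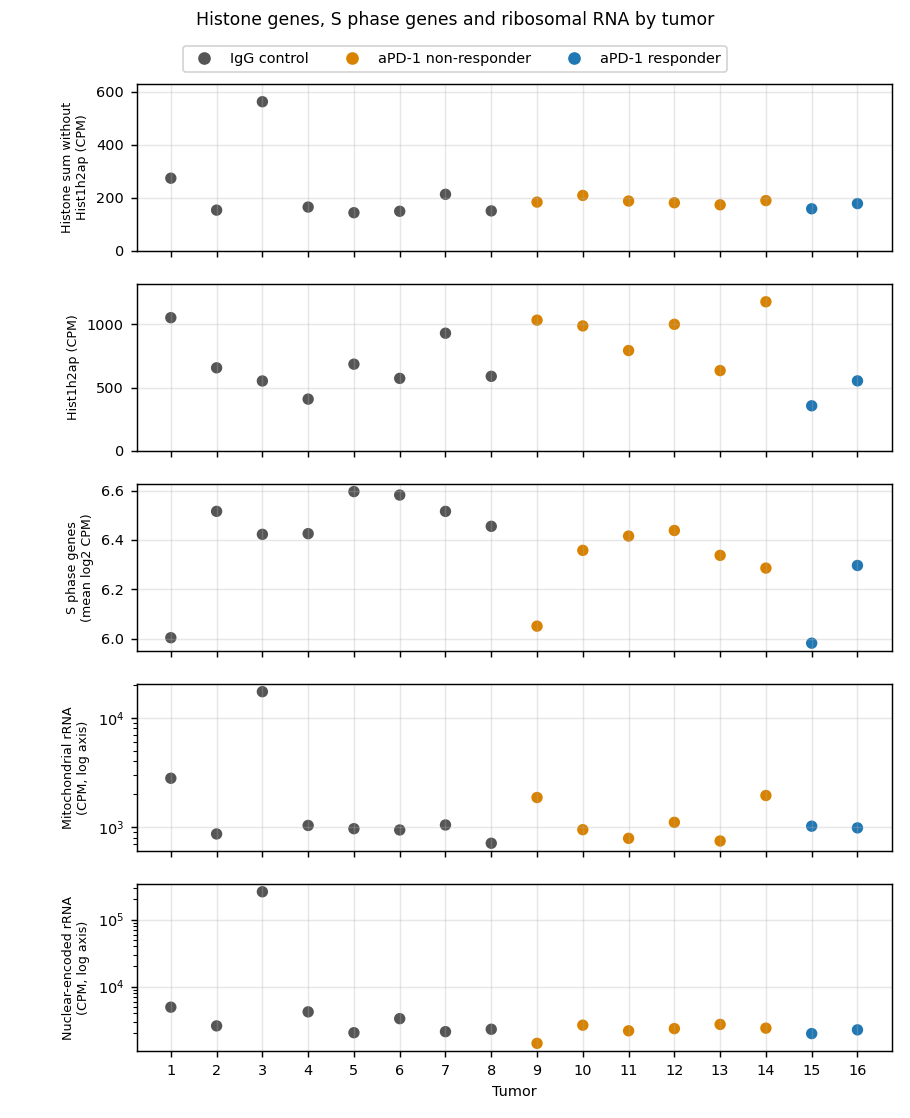
Values in each of the 16 tumors (horizontal axis, colored by group): the summed CPM of the 66 histone genes other than Hist1h2ap, the CPM of Hist1h2ap, the mean log2 CPM of 28 S phase genes, and the CPM of mitochondrial and of nuclear-encoded ribosomal RNA, the last 2 on log axes. Tumor 3 is the highest in the histone sum at 562 CPM and in both ribosomal panels, but not in the Hist1h2ap or S phase panels, and tumor 1 is second in the histone sum at 273 CPM with a low S phase value of 6.00.

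Between non-responders and IgG controls, the question was whether aPD-1 without a response changed histone expression, and no gene of the set was called, where a call required both a log2 fold change beyond 1 in either direction and an adjusted p under 0.05. The test was the quasi-likelihood test of edgeR, adjusted by the Benjamini-Hochberg method over all 18251 tested genes, among which it called 0 as well (0%). At an unadjusted p below 0.05 there were 14 histone genes of 62 by edgeR, against 3.8% of all genes. With DESeq2 there were 6, against 787 of all 18251 genes. Of the 14, Hist1h2ap and Hist3h2a were higher in non-responders, at log2 fold changes of 0.46 and 0.23, and the rest were lower. The median log2 fold change of the 62 genes was -0.86, with 54 below 0, where the median of all genes was -0.01. This lower level rested on tumor 3. Without that tumor the median of the 59 genes still tested was -0.01, with 26 above 0. None of them had an unadjusted p below 0.05 by edgeR, against 3.24% of all genes.

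The 3 genes with the smallest p in this comparison show it. Hist1h3f, an H3 gene, was at 13.3 CPM in tumor 3, at 0.441 to 1.10 CPM in the other IgG controls and at 0.214 to 0.942 CPM with a median of 0.466 in the non-responders, so the groups overlapped apart from tumor 3. Its log2 fold change was -2.08 ± 0.84 (SE), with an adjusted p of 0.99 by edgeR, and -0.32 without tumor 3. Hist1h4f and Hist1h4k, both H4 genes, had log2 fold changes of -2.06 and -1.75, which became -0.33 and -0.50 without tumor 3.

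Between responders and IgG controls, which differ in both treatment and outcome, 1 gene of 62 was called higher and none lower, against 14.3% and 0.641% of all tested genes. The median log2 fold change of the set was -1.04 with 57 of 62 below 0, and without tumor 3 it was -0.19 over 59 genes with 23 above 0. The medians of all genes were -0.02 and 0.00. Hist1h2ae, an H2A gene, was at 1.09 and 2.08 CPM in the responders and at 1.59 to 6.70 CPM in the IgG controls, with a log2 fold change of -1.14 and an adjusted p of 0.11 by edgeR. Hist1h2bh, an H2B gene, was at 0.355 and 0.422 CPM against 0.420 to 4.72 CPM, with a log2 fold change of -1.71 and an adjusted p of 0.14. Neither passed the test, and in both the ranges of the groups overlapped.

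Between responders and non-responders, the comparison of outcome under the same antibody, 1 gene of 62 was called higher and 1 lower, against 12.5% and 0.663% of all tested genes. The median log2 fold change of the set was -0.10 with 24 above and 38 below 0, where that of all genes was 0.02. For 4 of the 62 genes both responders exceeded every non-responder, and for 7 both were lower than every non-responder, against 21.5% and 13.2% of all tested genes. Tumor 3 takes no part in these means, and the fit without it called the same 2 genes, where 12.6% and 0.632% of all genes tested were called higher and lower.

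The gene called lower was Hist1h2ap. The responders were at 356 and 553 CPM, and the non-responders ran from 634 CPM through a median of 994 to 1179 CPM. The 2 groups did not overlap, but the IgG controls, from 408 to 1053 CPM, overlapped both. The log2 fold change was -1.05 ± 0.32 (SE) with an adjusted p of 0.028 by edgeR. Against the IgG controls it was -0.58 ± 0.30 with an adjusted p of 0.19, and the log2 fold change between non-responders and IgG controls was 0.46 with an adjusted p of 0.99. Leaving out responder 15 gave -0.84 with an adjusted p of 0.37, a fit with a single responder that is taken to vary like the tumors of the other groups, and leaving out non-responder 14 gave -0.97, just under the required size. Hist1h2ap was not called without tumors 1, 3, 9 and 14, a set chosen after seeing the data. Its partner Hist1h2ao was not called, at -0.78 with an adjusted p of 0.14 by edgeR. The pair summed to 364 and 563 CPM in responders, 644 to 1198 CPM in non-responders and 415 to 1079 CPM in IgG controls. That sum was highest in tumors 14, 1 and 9, the libraries with the largest share of mitochondrial protein-coding genes. Hist3h2a, next by p in this comparison, was at 18.4 and 20.6 CPM in responders and at 20.6 to 30.6 CPM in non-responders, with a log2 fold change of -0.37 and an adjusted p of 0.13.

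The gene called higher was Hist3h2ba, an H2B gene of the Hist3 cluster at chr11:58948920-58949533, on 1 to 27 counts per tumor. It had 27 and 24 counts in the responders, 3 to 12 in the non-responders and 1 to 8 in the IgG controls, or 0.798 and 0.675 CPM against 0.0759 to 0.406 CPM and 0.0259 to 0.299 CPM, with no overlap between responders and the other tumors. The log2 fold change was 1.94 ± 0.63 (SE) against non-responders with an adjusted p of 0.039, and 2.42 ± 0.60 against IgG controls with an adjusted p of 0.0065, both by edgeR. Against non-responders the call was lost without any 1 of 7 tumors, non-responders 9, 10, 11, 12 and 13 and both responders, with adjusted p-values of 0.053 to 0.34. Against IgG controls it was lost without responder 15, with an adjusted p of 0.13. The fits without 1 responder hold a single tumor in that group, so their spread comes from the other groups. Only 3 tumors had at least 10 counts, both responders among them, so the gene passed the filter on low counts through the group in which it was high. None of its 150-base stretches is shared with another histone-named gene.

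**Figure D5:**
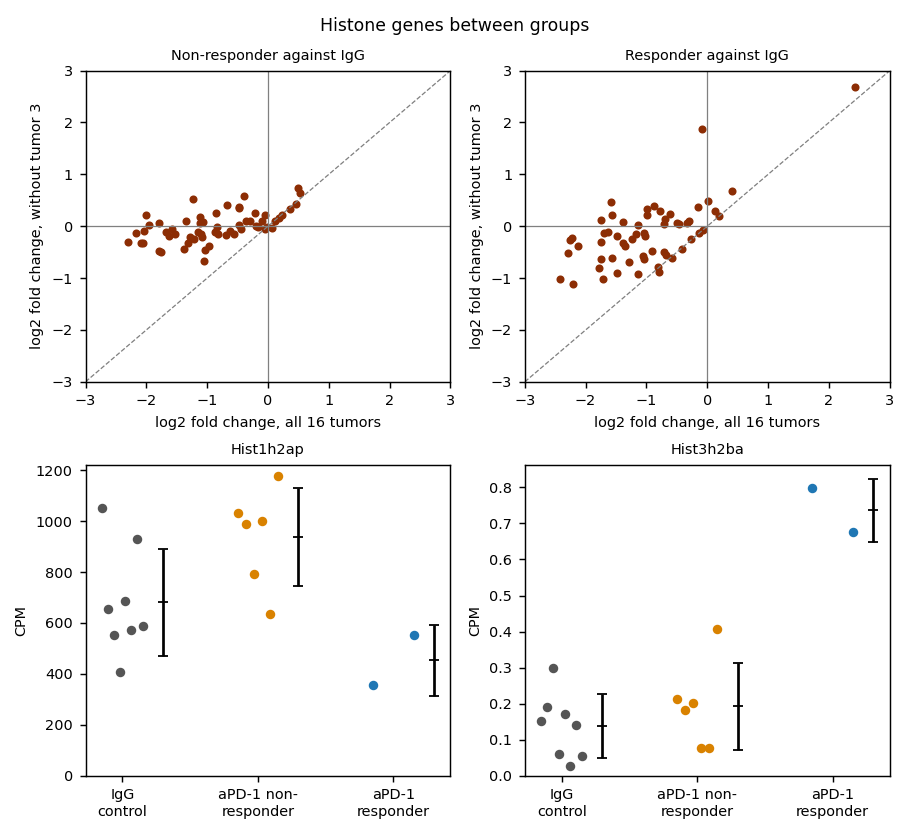
Top, log2 fold changes of the histone genes tested both with all 16 tumors (horizontal axis) and without tumor 3 (vertical axis), for non-responders and for responders against IgG controls, with the dashed line marking equal values; without tumor 3 the medians of the genes still tested are -0.01 and -0.19. Bottom, CPM of Hist1h2ap and Hist3h2ba in each tumor by group, with bars for mean ± SD (n = 8, 6 and 2): both responders lie below all non-responders for Hist1h2ap and above all other tumors for Hist3h2ba.

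Other cell-cycle and histone genes give the setting of these 2 calls. In responders against non-responders, 0 of 28 S phase and 0 of 20 G2/M genes were called in either direction. By edgeR, 3 and 4 of them had an adjusted p below 0.05 with a lower level and smaller change. Of all 18251 tested genes, 793 were lower at that adjusted p with a change of any size. The median log2 fold changes of the 2 lists were -0.16 and -0.37. Cdk1, the kinase that drives entry into mitosis, had a log2 fold change of -0.69 with an adjusted p of 0.0026 by edgeR. Of 11 replication-independent histone genes, H2afy2, which encodes a macroH2A, was called higher with a log2 fold change of 1.97 and an adjusted p of 0.0032, and Cenpa, the centromeric H3, had -0.46 with an adjusted p of 0.0070. Of 15 histone mRNA processing genes 0 were called, and of 12 chaperone genes 0 were called and 2 had an adjusted p below 0.05 with a lower level.

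The tissue content of the responder libraries differed as well. All 7 T cell, 6 B cell and 5 fat cell markers were called higher in responders against non-responders. So were 4 of 6 tested epithelial markers, against 12.5% of all tested genes. Responders were classed by their CD8 T cells, so the T cell result is not independent of that choice. The summed B cell markers were at 1085 and 272 CPM in the responders and at 1.22 to 6.93 CPM in the other 14 tumors. The summed epithelial markers, by which the tumor line could be checked, were at 117 and 50.7 CPM in the responders and at only 4.67 to 12.5 CPM elsewhere, so these markers of a colon carcinoma line were nearly absent in 14 tumors. The part of cell content in the levels of Hist1h2ap and Hist3h2ba was not tested.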

How the data were processed

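RNA-seq of 16 tumors was analysed from a table of expected counts per gene, deposited by the authors, who aligned reads with STAR 2.6 to GRCm38 and estimated the counts with RSEM 1.3.0 (Ensembl annotation). RSEM divides reads that match several genes among them, which bears on near-identical histone genes. Expected counts were rounded to whole numbers (7.84% of values were not whole). The 92 rows that name no mouse gene were left out. Of 53465 gene IDs, 53360 matched GENCODE M21, which gave symbols, classes and transcripts. Samples were grouped by their titles; each tumor is a separate mouse.

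Genes were filtered with filterByExpr and tested with edgeR 4.0.16 (quasi-likelihood, robust, TMM, all 16 tumors in 1 fit, R 4.3.3), adjusted over all tested genes; calls need a log2 fold change beyond 1 in either direction with an adjusted p under 0.05. The test was tried on simulated counts. List scores use log2 CPM with a prior count of 2. Tumor 3 was compared with the median of the other 7 IgG controls, with no test. Alternatives were DESeq2 1.42.0, median-of-ratios scaling, other filters, fewer groups and each tumor left out.

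Genes named were those called, the 3 smallest p in each comparison, the 5 of highest mean level, the 5 highest and 3 lowest ratios in tumor 3 (mean of at least 20 counts), the tested genes with long annotations, and the listed genes. The mean of at least 20 counts was taken with tumor 3 included. Members, lists and rules were chosen with earlier results of these data known.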

Additional observations from a re-analysis of the deposited data

Results flagged for a closer look

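In each group of IgG controls or non-responders, the gap of a value to the nearest other tumor was taken relative to the range of the group. The value was singled out when this passed Dixon's 95% limit. Chance passes the limit in about 1 of 20 groups if values are normally distributed, which low CPM values need not be. Of the 62 tested histone genes, 39 were singled out for tumor 3 among the IgG controls, 2 for tumor 1 and 1 for tumor 7. In the non-responders 2 were singled out for tumor 14, 1 for tumor 10 and 1 for tumor 13. The rule was not run over all tested genes, so these counts have no background share and are a description only.

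In tumor 3, the summed level without Hist1h2ap was 562 CPM, and the H1, H3 and H4 sums were 94.8, 120 and 145 CPM, each far above the rest of the IgG controls. Of the genes described, the long-annotated Hist1h1d (12.8 CPM), Hist1h1e (22.05 CPM), Hist1h3e (8.53 CPM), Hist1h3f (13.3 CPM), Hist2h3c2 (23.4 CPM), Hist2h4 (7.30 CPM), Hist4h4 (3.89 CPM) and Hist1h2bh (4.72 CPM) were singled out there. So were Hist1h2ab (7.49 CPM), Hist1h3b (14.7 CPM), Hist1h4f (10.48 CPM), Hist1h4h (14.9 CPM) and Hist1h4k (3.86 CPM).

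Elsewhere, Hist2h3c1 was at 2.85 CPM in tumor 1 and Hist3h2a at 27.1 CPM in tumor 7, both above the other IgG controls. Among the non-responders, tumor 14 stood above the others with Hist1h2ab at 0.711 CPM and Hist1h4f at 0.779 CPM, levels that remain below 1 CPM.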

How the results depend on the processing

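In responders against non-responders, 1 histone gene was called in place of 2 with no filter, with at least 10 counts in 8 tumors, and without tumors 1, 3, 9 and 14, the last chosen after seeing the data. Leaving out single tumors gave 0 to 2. In responders against IgG controls, 0 were called in place of 1 with at least 10 counts in 8 tumors, a filter that Hist3h2ba does not pass, and 2 without tumors 1, 3, 9 and 14, where Hist1h4m, named after its value was seen, joined at a log2 fold change of 1.99. Leaving out single tumors gave 0 to 1. In non-responders against IgG controls every alternative gave 0. DESeq2, median-of-ratios scaling, fits of only the 2 groups compared and no minimum fold left the 3 counts unchanged. The ratio of tumor 3 for the summed histone level, 1.38, kept within the spread of the IgG controls under the other scalings, unrounded counts and filtered genes, ranged from 1.36 to 1.44 without single IgG controls, and was 3.68 without Hist1h2ap, a choice added after seeing the data. The median log2 fold changes against IgG controls moved without tumor 3, as given in the report, and without tumors 1, 3, 9 and 14 they were 0.12 for non-responders and 0.09 for responders. No paired analysis was possible because the groups share no replicate numbers. With 2 responders and counts of 1 to 27 for Hist3h2ba, depth and the number of animals limit the calls.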
